A study of Mus musculus with 15 samples.

Results

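Hmox1 and the iron-handling genes described here are 9 genes chosen by symbol: Hmox1, Blvra, Blvrb, Fth1, Ftl1, Slc40a1, Tfrc, Slc11a1 and Slc11a2. All 9 were found among the 10653 protein-coding genes measured. They were followed in MPI cells, self-renewing mouse macrophages that depend on GM-CSF, a growth factor, and stand in for alveolar macrophages, 24 h after mineral particles were added or left out. The groups were cells given 9 µg/cm² riebeckite asbestos, 40 µg/cm² riebeckite cleavage fragments (called riebeckite fragments below), 5 µg/cm² tremolite asbestos, 60 µg/cm² tremolite cleavage fragments (tremolite fragments), and untreated cells, with 3 libraries each. The untreated samples carry the agent "none", while their description speaks of a vehicle control, so the labels leave unsaid whether a vehicle was added. Doses were equal in surface area, so the mass of particles differed between groups. Cells of every group, the untreated ones too, came from female C57BL6/J fetal liver per the labels and grew with GM-CSF. The labels do not say whether libraries of 1 group were separate cultures; the spread that the p-values rest on may therefore be technical.

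Heme oxygenase 1, the product of Hmox1, opens the heme ring and releases iron, carbon monoxide and biliverdin, and the biliverdin reductases turn biliverdin into bilirubin. Released iron is stored inside shells of ferritin heavy and light chains, leaves the cell through ferroportin (Slc40a1), and enters it through the transferrin receptor (Tfrc) and the metal carriers of the Slc11a family. Iron regulatory proteins bind hairpins called iron-responsive elements when iron is scarce: a hairpin before the coding sequence then blocks translation of the message, and the hairpins behind the coding sequence of Tfrc protect its message from decay. Riebeckite is a sodium and iron amphibole, whereas tremolite is a calcium and magnesium amphibole with little iron.

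The hairpins of the genes themselves were read from the GENCODE M21 transcripts (GRCm38), because they divide the 9 genes by how iron is known to act on them. The search looked, on the transcript strand, for C, 5 bases, CAGTGN and 5 bases that pair with the first 5 (G with T allowed). It found 7 matches, and 1 more, in Slc11a2, after a single unpaired base was allowed on the 3′ side. That allowance was added once the strict search had found none in Slc11a2. Each line gives the transcript and the sequence with 5 bases on either side, and the loop is in capitals.
Fth1-201: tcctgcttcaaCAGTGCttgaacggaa
Ftl1-201: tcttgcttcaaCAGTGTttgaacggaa
Slc40a1-201: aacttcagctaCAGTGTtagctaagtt
Tfrc-201, first: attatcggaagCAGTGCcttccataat
Tfrc-201, next: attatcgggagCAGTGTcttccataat
Tfrc-201, next: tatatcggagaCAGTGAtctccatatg
Tfrc-201, last: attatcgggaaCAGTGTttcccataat
Slc11a2-205: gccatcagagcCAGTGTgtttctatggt
Those of Fth1 (chr19:9982733-9982759, plus strand), Ftl1 (chr7:45459780-45459806, minus strand) and Slc40a1 (chr1:45925466-45925492, minus strand) lay in the 5′ UTR. The 4 of Tfrc lay in its 3′ UTR on the plus strand, at chr16:32631220-32631246, chr16:32631599-32631625, chr16:32631664-32631690 and chr16:32631711-32631737. The hairpin of Slc11a2 lay in the 3′ UTR of Slc11a2-205 at chr15:100395153-100395180 on the minus strand, and Slc11a2-201 held no match. No match was found in Hmox1, Blvra, Blvrb or Slc11a1 transcripts. The strict pattern occurred in 1.25% of the 22727 listed transcripts scanned, and the pattern with the unpaired base in 2.38%. A match is a run of letters and not a test of binding.

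The cells carried all 10 macrophage markers and all 7 alveolar macrophage markers looked for. The summed alveolar markers were at 3522 to 3813 FPKM with riebeckite asbestos, 4340 to 4558 with riebeckite fragments, 4227 to 4757 with tremolite asbestos and 4444 to 4643 with tremolite fragments, against 4477 to 4744 FPKM in untreated cells, with 3 of 7 higher and 3 lower for riebeckite asbestos. The summed macrophage markers were at 6225 to 6499, 6449 to 6959, 5368 to 6087 and 5281 to 5625 FPKM in the same order of particles, against 5100 to 5586 FPKM in untreated cells. Of 10 erythroid markers only Epor had an entry, at 5.58 to 6.26 FPKM with riebeckite asbestos and 3.14 to 4.25 FPKM in untreated cells, and the hemoglobin genes had none. Of 8 hepatocyte markers only Trf had one. Of 10 neutrophil markers S100a8, Cxcr2 and Mmp8 had one, and their summed level was 70.1 to 72.6 FPKM with riebeckite asbestos, 72.8 to 76.0 with riebeckite fragments, 38.7 to 48.0 with tremolite asbestos and 41.8 to 45.0 with tremolite fragments, against 30.8 to 35.1 FPKM in untreated cells. Mitochondrial genes held 6.08 to 6.90% of all FPKM with riebeckite asbestos and 8.54 to 8.86% in untreated cells. The part of these differences in the values below was not tested, except that setting the total of the nuclear genes equal in all libraries changed no member's call against untreated cells. In such bulk libraries fewer expressing cells and less RNA per cell cannot be told apart.

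All 4 particles moved most of the 9 genes. Relative to untreated cells, riebeckite asbestos raised 6 and lowered 3, riebeckite fragments raised 5 and lowered 3, and each tremolite particle raised 4 and lowered 3 (limma on log2(FPKM + 1) over all genes, Benjamini-Hochberg adjusted p under 0.05). The same test called 45.3% of all 10616 genes with riebeckite asbestos, 38.4% with riebeckite fragments, 23.9% with tremolite asbestos and 27.5% with tremolite fragments, so being called was common among all genes. By direction, 2232 genes rose and 2575 fell with riebeckite asbestos, 1626 rose and 2447 fell with riebeckite fragments, 1062 rose and 1478 fell with tremolite asbestos, and 1328 rose and 1592 fell with tremolite fragments. The median difference over the 9 genes was 0.45, 0.29, 0.20 and 0.21 on the log2 scale in that order, beside -0.02, -0.04, -0.03 and -0.02 over all genes. Libraries of the treated group did not overlap the untreated ones for 9 genes with riebeckite asbestos, 8 with riebeckite fragments, 8 with tremolite asbestos and 6 with tremolite fragments, against 55.3, 49.1, 39.9 and 45.1% of all genes. The 4 comparisons share the same untreated libraries. Hmox1, Blvrb and Slc11a1 were higher and Blvra, Slc40a1 and Tfrc lower with each particle, while the calls for Fth1, Ftl1 and Slc11a2 differed between particles.

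**Figure D1:**
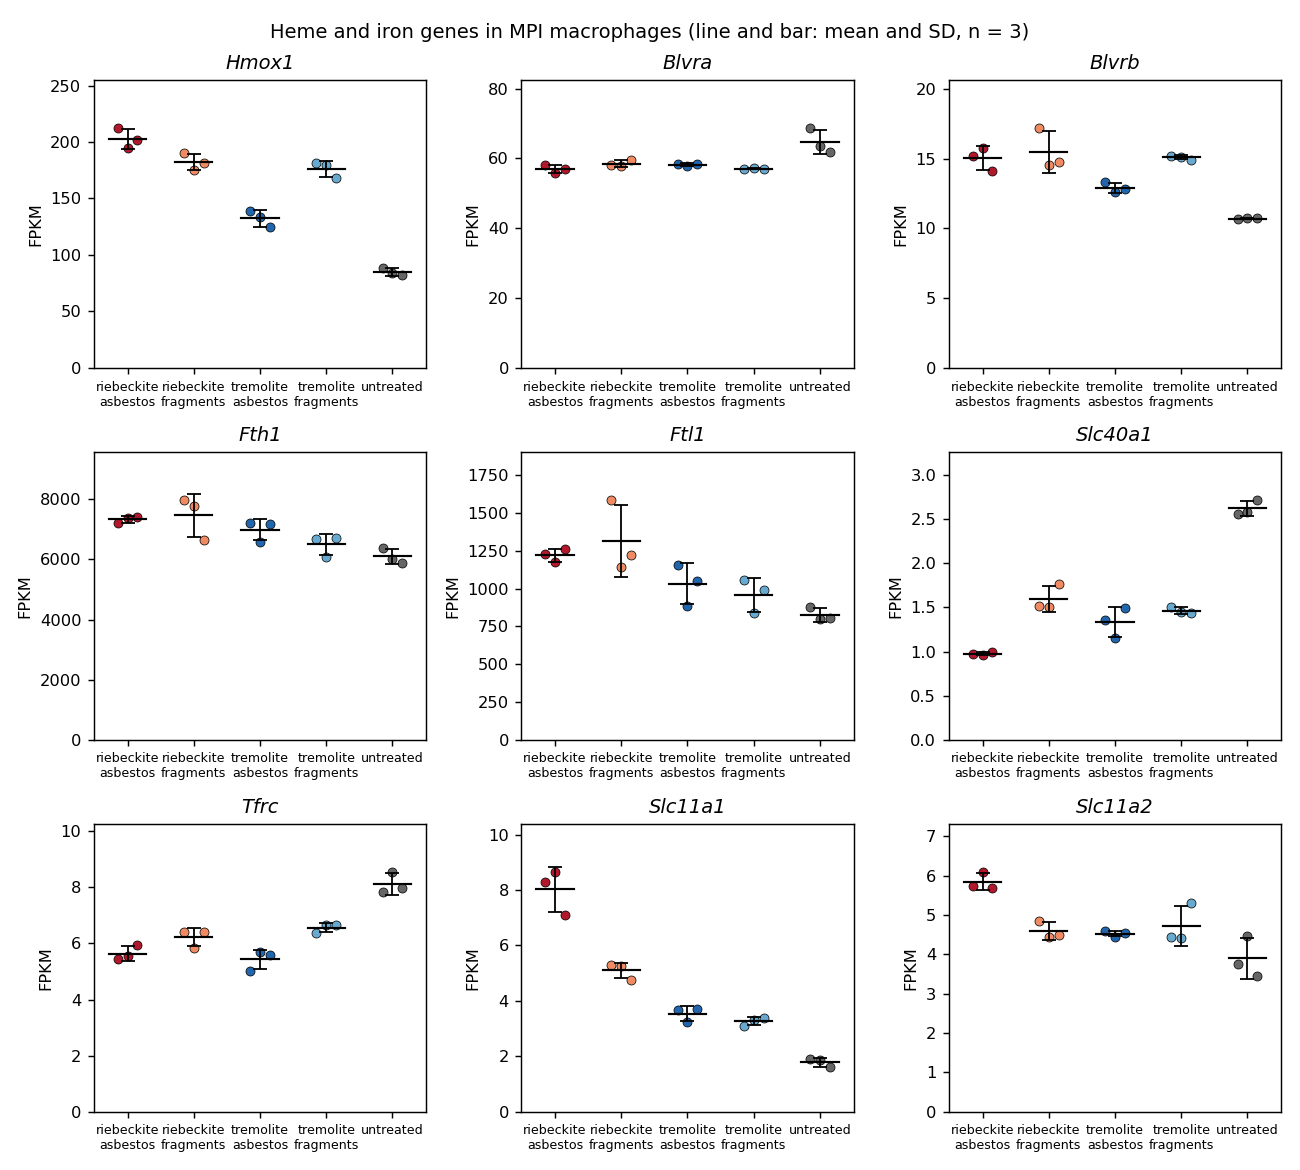
Levels (FPKM, y axis, starting at 0) of the 9 genes in each of the 15 libraries, by group on the x axis. Points are libraries, and the line and bar are the mean and SD of 3. Hmox1 was above 124 FPKM in all 12 treated libraries and below 89 FPKM in the 3 untreated ones, and Slc40a1 was lower in all 12 treated libraries.

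Hmox1 (chromosome 8, 75093621 to 75100589, plus strand) was at 212, 195 and 201 FPKM with riebeckite asbestos and 190, 176 and 181 FPKM with riebeckite fragments. It was at 139, 134 and 124 FPKM with tremolite asbestos and 181, 179 and 168 FPKM with tremolite fragments, against 88.6, 84.2 and 82.0 FPKM in untreated cells. The untreated libraries lay below all others, and tremolite asbestos stood apart from the other 3 particles on the low side. Mean levels were 2.39, 2.15, 1.56 and 2.08 times the untreated mean with riebeckite asbestos, riebeckite fragments, tremolite asbestos and tremolite fragments. Limma gave differences of 1.25 ± 0.05, 1.09 ± 0.05, 0.63 ± 0.05 and 1.05 ± 0.05 (log2, SE) with adjusted p from 5.41e-10 to 1.09e-06. The gene ranked between 151 and 476 of 10653 by level, and 99.6% of its signal on average was that of its coding transcript Hmox1-201, which was called higher with all 4 particles as well.

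The order of asbestos and fragments in Hmox1 level differed between the minerals. Asbestos and fragments were also given at different mass (9 against 40 µg/cm² with riebeckite, 5 against 60 µg/cm² with tremolite). Particle form and mass therefore cannot be told apart in these comparisons. Tremolite asbestos gave a lower Hmox1 level than tremolite fragments (132 ± 7.44 against 176 ± 6.95 FPKM, SD, n = 3 each; log2 difference -0.41, limma adjusted p = 0.00188). Of all genes 0.942% differed between these groups (0.556% with the lower level in asbestos), and Hmox1 was the 1 gene of the 9 among them. With riebeckite, asbestos was 0.15 above fragments on the log2 scale (95% interval 0.05 to 0.26), which did not pass the threshold (limma adjusted p = 0.0664), although the libraries did not overlap. The difference between these asbestos effects was itself 0.57 on the log2 scale (limma adjusted p = 0.00142), and it passed under all 22 alternatives, which gave 0.52 to 0.60. Set against each other, riebeckite asbestos was 1.53 times tremolite asbestos (log2 difference 0.61, limma adjusted p = 2.71e-06), and riebeckite fragments were 1.03 times tremolite fragments (0.05, 95% interval -0.06 to 0.15, adjusted p = 0.589). In the order of levels, riebeckite fragments and tremolite fragments were the neighbours whose libraries overlapped.

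**Figure D2:**
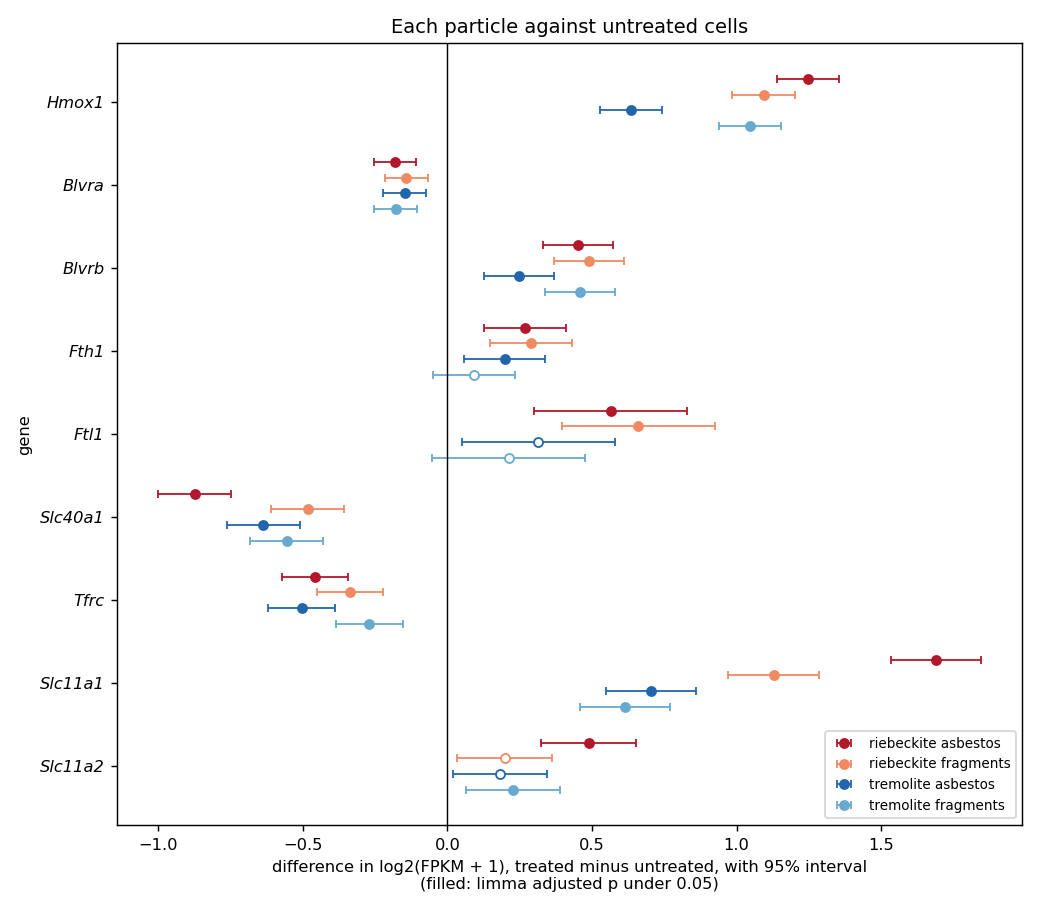
Difference in log2(FPKM + 1) between each particle and untreated cells (x axis) for the 9 genes (y axis), with 95% intervals from limma. Filled points passed the threshold; Hmox1 and Slc11a1 lie farthest right and Slc40a1 farthest left, and tremolite asbestos is the lowest of the 4 for Hmox1 and Blvrb.

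The biliverdin reductases went in opposite directions. Blvrb (chromosome 7, 27447978 to 27466144), the reductase that also acts on flavins, was at 15.2, 15.8 and 14.1 FPKM with riebeckite asbestos, 17.2, 14.5 and 14.7 with riebeckite fragments, 13.3, 12.6 and 12.9 with tremolite asbestos and 15.2, 15.1 and 14.9 with tremolite fragments, against 10.7 FPKM in each untreated library. Every treated library was above the untreated ones, and tremolite asbestos was again the lowest particle. Its rise was 0.45, 0.49, 0.25 and 0.46 on the log2 scale in that order of groups, and riebeckite asbestos was 0.20 above tremolite asbestos (limma adjusted p = 0.018). That last call was lost without riebeckite asbestos library 1 (0.0571) or 2 (0.0699) or tremolite asbestos library 2 (0.0599) or 3 (0.0505).

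Blvra (chromosome 2, 127070665 to 127097084), the main reductase of adult biliverdin, ranged over 55.7 to 59.6 FPKM in the 12 treated libraries, against 68.7, 63.5 and 62.0 FPKM without particles. No treated library reached an untreated one. The falls were small, at -0.18, -0.14, -0.15 and -0.18 (log2; limma adjusted p = 0.00651 or below). Neither asbestos and fragments of the same mineral nor the minerals within asbestos or within fragments differed past the threshold. The libraries with tremolite fragments did not overlap those with riebeckite fragments or tremolite asbestos. With riebeckite fragments the fall was no longer called when libraries were rescaled by TMM (adjusted p = 0.0653). With only the groups compared in the fit, neither riebeckite fragments (0.0507) nor tremolite asbestos (0.058) passed.

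Ferritin messages were the most abundant of the genes. Fth1 (chromosome 19, 9982703 to 9985092), the heavy chain that oxidises iron for storage, was the highest of all 10653 genes in every library. Its level was 7209, 7390 and 7419 FPKM with riebeckite asbestos, 7983, 7779 and 6663 with riebeckite fragments, 7228, 6595 and 7168 with tremolite asbestos and 6693, 6094 and 6710 with tremolite fragments, against 6379, 6026 and 5896 FPKM in untreated cells. Tremolite fragments overlapped untreated cells and the other 3 particles did not. The rise was called with riebeckite asbestos (0.27, limma adjusted p = 0.00473), riebeckite fragments (0.29, 0.00336) and tremolite asbestos (0.20, 0.0437), and tremolite fragments gave 0.09 (95% interval -0.05 to 0.23). The call for tremolite asbestos was lost without untreated library 2 (limma adjusted p = 0.111) or 3 (0.136), or without its own library 1 (0.131) or 3 (0.125).

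Ftl1 (chromosome 7, 45457944 to 45459884), the light chain that helps to form the iron core, ranked between 17 and 26 of all genes. It was at 1227, 1173 and 1259 FPKM with riebeckite asbestos, 1585, 1139 and 1222 with riebeckite fragments, 1155, 887 and 1049 with tremolite asbestos and 1055, 835 and 987 with tremolite fragments, against 875, 796 and 803 FPKM in untreated cells. The riebeckite libraries and, narrowly, those with tremolite asbestos lay above all untreated ones, and tremolite fragments overlapped them. The rise was 0.57 with riebeckite asbestos (limma adjusted p = 0.00211) and 0.66 with riebeckite fragments (0.000827), while tremolite asbestos gave 0.31 (95% interval 0.05 to 0.58, adjusted p = 0.0824) and tremolite fragments 0.21 (-0.05 to 0.48, 0.228). Over both habits, riebeckite was 0.35 above tremolite (limma adjusted p = 0.00846), a call that ended when transcripts were summed in place of the gene value (0.25, adjusted p = 0.157). Between fragments alone it was 0.45 above (adjusted p = 0.0338), a call lost without riebeckite fragments library 1 (0.12) or tremolite fragments library 2 (0.127) or 3 (0.0711), with only these groups in the fit (0.115) and with transcripts summed (0.40, 0.179). The coding transcripts made up 71.2 to 92.7% of the gene's exonic signal in single libraries, if gene values are length-weighted sums over all annotated transcripts. Ftl1-201 alone was higher with riebeckite asbestos (0.60, adjusted p = 0.0373) and riebeckite fragments (0.80, 0.00905), and gave 0.50 (0.147) with tremolite asbestos and 0.40 (0.264) with tremolite fragments, which did not pass. Riebeckite asbestos minus tremolite asbestos was 0.10 for it (adjusted p = 0.84). The annotation holds 7 pseudogenes whose names begin with Fth or Ftl, those of Fthl17 among them, and pseudogenes under other names were not looked for. Reads that pseudogenes share with Fth1 or Ftl1 could be split uncertainly.

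By gene values, the ratio of light to heavy chain message was higher after riebeckite than after tremolite. The ratio of Ftl1 to Fth1 averaged 0.166 ± 0.006 with riebeckite asbestos, 0.176 ± 0.027 with riebeckite fragments, 0.147 ± 0.013 with tremolite asbestos and 0.147 ± 0.010 with tremolite fragments, against 0.135 ± 0.003 in untreated cells (SD, n = 3 each). Exact 2-sided permutation tests against untreated cells gave p = 0.1, 0.1, 0.3 and 0.2 in that order, and 0.1 is the smallest p that 3 against 3 can give. Over 6 riebeckite and 6 tremolite libraries, with both habits of a mineral pooled despite their different doses, the difference was 0.21 on the log2 scale (exact permutation test, 2-sided, p = 0.0216). With transcript values summed in place of the gene values it was 0.12 (exact permutation p = 0.305), so the difference between minerals depended on which values were used. Ferritin as a whole made up 3.25 ± 0.05% of all FPKM with riebeckite asbestos, 3.27 ± 0.25% with riebeckite fragments, 3.05 ± 0.13% with tremolite asbestos and 2.85 ± 0.15% with tremolite fragments, against 2.67 ± 0.09% in untreated cells.

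**Figure D3:**
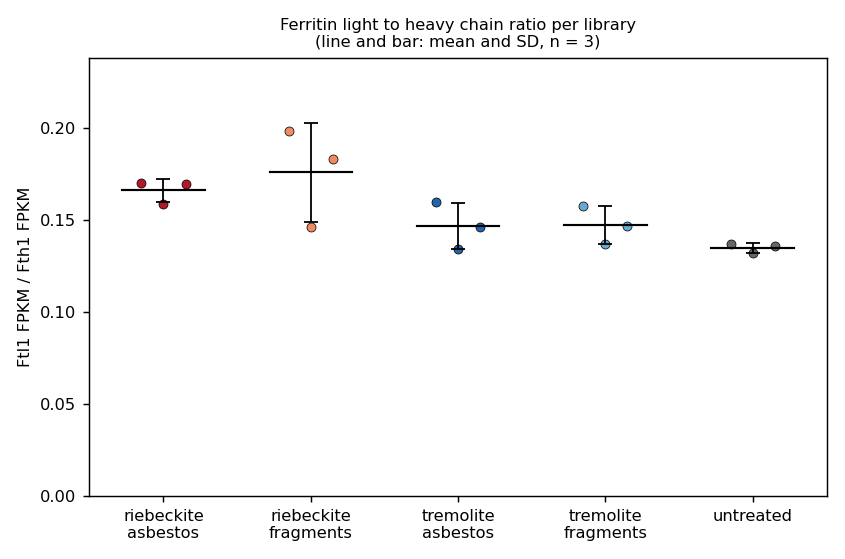
Ratio of Ftl1 to Fth1 FPKM (y axis, starting at 0) in each of the 15 libraries by group (x axis), with the mean and SD of 3. The ratio was 0.135 in untreated cells and 0.166 and 0.176 with the riebeckite particles, and riebeckite fragments spread most widely.

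Slc40a1, the exporter, and Tfrc, the importer of transferrin iron, both fell. Slc40a1 (chromosome 1, 45908068 to 45926523) was at 0.976, 0.958 and 0.999 FPKM with riebeckite asbestos and 1.51, 1.51 and 1.76 with riebeckite fragments. It was at 1.36, 1.15 and 1.49 with tremolite asbestos and 1.51, 1.45 and 1.43 with tremolite fragments, against 2.56, 2.59 and 2.72 FPKM in untreated cells. All treated libraries were below the untreated ones, and those with riebeckite asbestos were the lowest. Mean levels were 0.373, 0.608, 0.509 and 0.558 times the untreated mean in that order of groups. On the log2(FPKM + 1) scale, which understates changes of a gene at so low a level, the differences were -0.87, -0.48, -0.64 and -0.56 (SE 0.06 each, limma adjusted p = 2.45e-05 or below).

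Riebeckite asbestos left less Slc40a1 message than riebeckite fragments (0.977 ± 0.020 against 1.59 ± 0.14 FPKM, SD, n = 3 each; log2 difference -0.39, limma adjusted p = 0.00166) and less than tremolite asbestos (1.33 ± 0.17 FPKM; -0.24, adjusted p = 0.00945). Its difference from tremolite asbestos missed the threshold with only these groups in the fit (0.0602). Tremolite asbestos and tremolite fragments differed by -0.08 (95% interval -0.21 to 0.05, adjusted p = 0.699). The difference between the asbestos effects of the minerals was -0.31 (limma adjusted p = 0.058), just outside the threshold, and it passed with TMM rescaling (0.0462), a pseudocount of 0.1 (0.0488), no mean-variance trend (0.0456) and without tremolite asbestos library 2 (0.0216). The coding transcript Slc40a1-201, which carries the hairpin shown above, was called lower with each particle, by -1.10, -0.59, -0.81 and -0.66 in the order of groups above.

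Tfrc (chromosome 16, 32608920 to 32632794) was at 5.43, 5.55 and 5.93 FPKM with riebeckite asbestos, 6.39, 5.85 and 6.41 with riebeckite fragments, 5.03, 5.68 and 5.57 with tremolite asbestos and 6.38, 6.66 and 6.64 with tremolite fragments, against 7.83, 8.55 and 7.97 FPKM in untreated cells. No treated library reached the untreated range. The falls were -0.46, -0.34, -0.50 and -0.27 in that order (limma adjusted p = 0.00196 or below). Averaged over the minerals, asbestos was 0.18 lower than fragments (log2 difference -0.18, limma adjusted p = 0.0174), and the minerals themselves differed by -0.01 (95% interval -0.09 to 0.07). Within 1 mineral, neither the difference by habit in riebeckite (-0.12, adjusted p = 0.177, libraries overlapping) nor that in tremolite (-0.23, 0.0629) passed. With transcripts summed in place of the gene value, the difference by habit was -0.10 (adjusted p = 0.384). None of the 3 listed transcripts passed by itself. Tfrc-201, which holds the 4 hairpins, gave -0.18, -0.12, -0.26 and -0.00, and Tfrc-202, which holds none, gave -0.59, -0.50, -0.42 and -0.43, so the fall of the gene could not be assigned to either message.

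Slc11a1, a metal carrier of the phagosome membrane of macrophages, had the largest difference of the 9 genes with the riebeckite particles and with tremolite asbestos. The gene (chromosome 1, 74375195 to 74386062) was at 8.30, 8.65 and 7.11 FPKM with riebeckite asbestos, 5.28, 5.25 and 4.77 with riebeckite fragments, 3.67, 3.24 and 3.72 with tremolite asbestos and 3.11, 3.32 and 3.39 with tremolite fragments, against 1.91, 1.85 and 1.61 FPKM in untreated cells. Of the neighbours in this order, tremolite asbestos and tremolite fragments were the pair whose libraries overlapped. Differences from untreated cells were 1.69, 1.13, 0.70 and 0.61 (log2, limma adjusted p = 2.95e-05 or below). The log2(FPKM + 1) scale understates changes at so low a level, and mean levels were 4.48, 2.85, 1.98 and 1.83 times the untreated mean. Riebeckite asbestos was above riebeckite fragments by 0.56 (limma adjusted p = 0.000555) and above tremolite asbestos by 0.99 (1.33e-06), and riebeckite fragments were above tremolite fragments by 0.51 (0.000565).

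These values are those given for the whole gene, which may hold more than its protein-coding message. The shares below assume that gene values are length-weighted sums over all annotated transcripts, which was checked only where every transcript was listed. The annotation lists 11 transcripts of Slc11a1, of which 2 are coding, and the coding ones made up 10.9 to 79.3% of the gene's exonic signal in single libraries, with means of 29.2% with riebeckite asbestos, 46.8% with riebeckite fragments, 29.5% with tremolite asbestos, 49.4% with tremolite fragments and 38.9% in untreated cells. Slc11a1-201 was at 3.91, 1.50 and 1.63 FPKM with riebeckite asbestos, 3.27, 4.73 and 3.43 with riebeckite fragments, 1.42, 0.759 and 2.90 with tremolite asbestos and 3.94, 0.962 and 2.74 with tremolite fragments, against 1.17, 1.59 and 0.631 FPKM in untreated cells. Riebeckite fragments were the group whose libraries all lay above the untreated ones, with riebeckite asbestos and both tremolite groups overlapping them. The transcript passed the threshold with none of the particles, at 0.60, 1.19, 0.28 and 0.66 (log2; limma adjusted p = 0.403, 0.0833, 0.825 and 0.475). Summing the coding transcripts in place of the gene value ended all calls of Slc11a1 against untreated cells (0.96, 1.19, 0.30 and 0.66 on the log2 scale; adjusted p = 0.167, 0.0997, 0.763 and 0.425) and turned the difference between riebeckite asbestos and riebeckite fragments round, to -0.23 (0.845).

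Slc11a2 (chromosome 15, 100387898 to 100425072), the carrier that moves iron out of endosomes, was at 5.74, 6.10 and 5.70 FPKM with riebeckite asbestos, 4.86, 4.45 and 4.48 with riebeckite fragments, 4.59, 4.45 and 4.55 with tremolite asbestos and 4.43, 4.42 and 5.30 with tremolite fragments, against 3.75, 4.47 and 3.46 FPKM in untreated cells. Riebeckite asbestos stood above all other libraries, and each of the other 3 particles overlapped the untreated range. It rose by 0.49 with riebeckite asbestos (limma adjusted p = 0.000157) and by 0.23 with tremolite fragments (0.04), and the values were 0.20 with riebeckite fragments (0.0545) and 0.18 with tremolite asbestos (0.102). The call with tremolite fragments was lost without untreated library 1 (0.11) or 3 (0.162) or tremolite fragments library 3 (0.165), and without untreated library 2 those of riebeckite fragments (0.00812) and tremolite asbestos (0.0193) were gained. Riebeckite asbestos was 0.31 above tremolite asbestos (adjusted p = 0.00919) and 0.29 above riebeckite fragments (0.0279). The call against riebeckite fragments was lost without riebeckite asbestos library 1 (0.065), 2 (0.0929) or 3 (0.0521), or riebeckite fragments library 2 (0.0885) or 3 (0.0758).

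The messages of Slc11a2 with and without the hairpin could be read separately. Slc11a2-205, which holds it, was at 3.45, 3.35 and 3.21 FPKM with riebeckite asbestos, against 2.34, 2.50 and 2.22 FPKM in untreated cells, and differed by 0.37 (log2, limma over transcripts, adjusted p = 0.0368). Slc11a2-201, which lacks it, was at 6.83, 7.68 and 7.11 FPKM with riebeckite asbestos, against 4.42, 5.61 and 3.87 FPKM in untreated cells, and differed by 0.55 (0.0182). Both were called higher with riebeckite asbestos, and neither passed with the other 3 particles. Riebeckite asbestos exceeded tremolite asbestos for Slc11a2-205 (0.40, limma adjusted p = 0.049, close to the threshold), and Slc11a2-201 gave 0.22 (0.447). The difference between these messages was not tested. Over all 9 genes, 6 of 18 transcripts tested passed with riebeckite asbestos, 5 with riebeckite fragments, 2 with tremolite asbestos and 3 with tremolite fragments, against 13.0, 10.3, 5.02 and 6.29% of all transcripts. The 6 became 3 to 4 whichever riebeckite asbestos or untreated library was left out, and 3 without riebeckite asbestos library 2 or any 1 of the untreated libraries. The 5 became 3 without riebeckite fragments library 1 or 2 or untreated library 3. Which transcripts lost their calls is not given, so those of Slc11a2-205 and Slc11a2-201 may be among them.

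**Figure D4:**
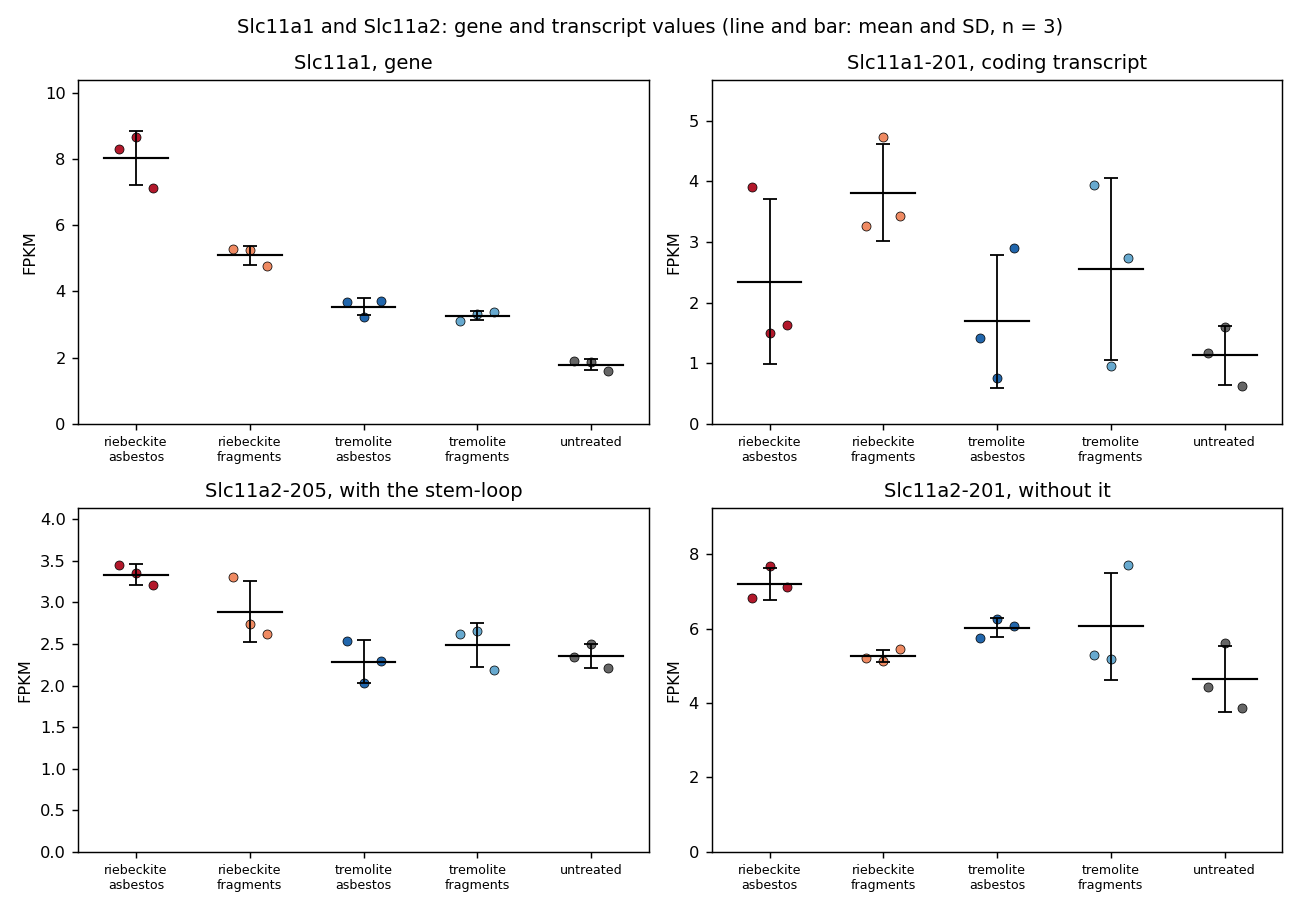
Levels (FPKM, y axis, starting at 0) by group (x axis) of the gene Slc11a1, its coding transcript Slc11a1-201, and the Slc11a2 transcripts with and without the hairpin, with the mean and SD of 3 libraries. The untreated libraries are the lowest for the gene Slc11a1, whereas those of Slc11a1-201 overlap 3 of the 4 treated groups.

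Sorted by their hairpins, the message levels of the genes did not move as blocks. A hairpin in the 5′ UTR acts on translation, which message levels do not measure, so action through these hairpins was not tested. Among those with the hairpin in the 5′ UTR, Fth1 and Ftl1 rose with both riebeckite particles while Slc40a1 fell with all 4. Among those with it in the 3′ UTR, the gene Tfrc fell with all 4 particles while the gene Slc11a2 rose with riebeckite asbestos. The hairpin message of Slc11a2 was called higher with riebeckite asbestos, but that of Tfrc passed with no particle. Opposite moves of these hairpin messages were therefore not shown. Of the 4 genes without a match, Hmox1, Blvrb and Slc11a1 rose and Blvra fell with each particle.

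Mineral and habit were compared among the particles themselves, at doses that also differed in mass. Riebeckite asbestos differed from tremolite asbestos in 5 of the 9 genes, of which Hmox1, Blvrb, Slc11a1 and Slc11a2 were higher and Slc40a1 lower, where 26.5% of all genes were called. Riebeckite fragments exceeded tremolite fragments in Ftl1 and Slc11a1, where 11.3% of all genes were called (5.31% higher with riebeckite), and the count became 1 without riebeckite fragments library 1 or tremolite fragments library 2 or 3. Averaged over habits, riebeckite was above tremolite in 5 genes (Hmox1, Blvrb, Fth1, Ftl1 and Slc11a1), beside 30.8% of all genes (15.8% higher). That count became 3, without Blvrb (adjusted p = 0.0402 over all libraries) and Fth1 (0.0424), when riebeckite asbestos library 1 or 2, riebeckite fragments library 1, tremolite asbestos library 3 or tremolite fragments library 1 or 2 was left out. With transcripts summed, Hmox1 alone of the 5 passed, and Ftl1 (adjusted p = 0.157), Slc11a1 (0.269), Blvrb (0.111) and Fth1 (0.0574) did not. Single omissions ended the call for Fth1 in 10 of 12 cases and that for Blvrb in 8 of 12.

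Riebeckite asbestos differed from riebeckite fragments in Slc40a1, Slc11a1 and Slc11a2, where 10.6% of all genes were called. Averaged over minerals, asbestos differed from fragments in 3 genes, with Slc40a1 (-0.24) and Tfrc (-0.18) lower and Slc11a1 (0.33) higher, beside 5.37% of all genes. Hmox1 just missed the threshold here (-0.13, limma adjusted p = 0.053) and passed as lower with asbestos in 6 of 22 alternatives. With transcripts summed, the difference was -0.30 for Slc11a1 (adjusted p = 0.746) and the call for Tfrc was lost (0.384). The asbestos effect itself differed between the minerals for Hmox1 and Slc11a1, beside 3.93% of all genes (2.65% with the higher value in riebeckite). For Slc11a1 this difference of 0.47 (limma adjusted p = 0.0236) was lost without riebeckite asbestos library 1 (0.0619) or 2 (0.0515) or tremolite fragments library 2 (0.0583) or 3 (0.0535).

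**Figure D5:**
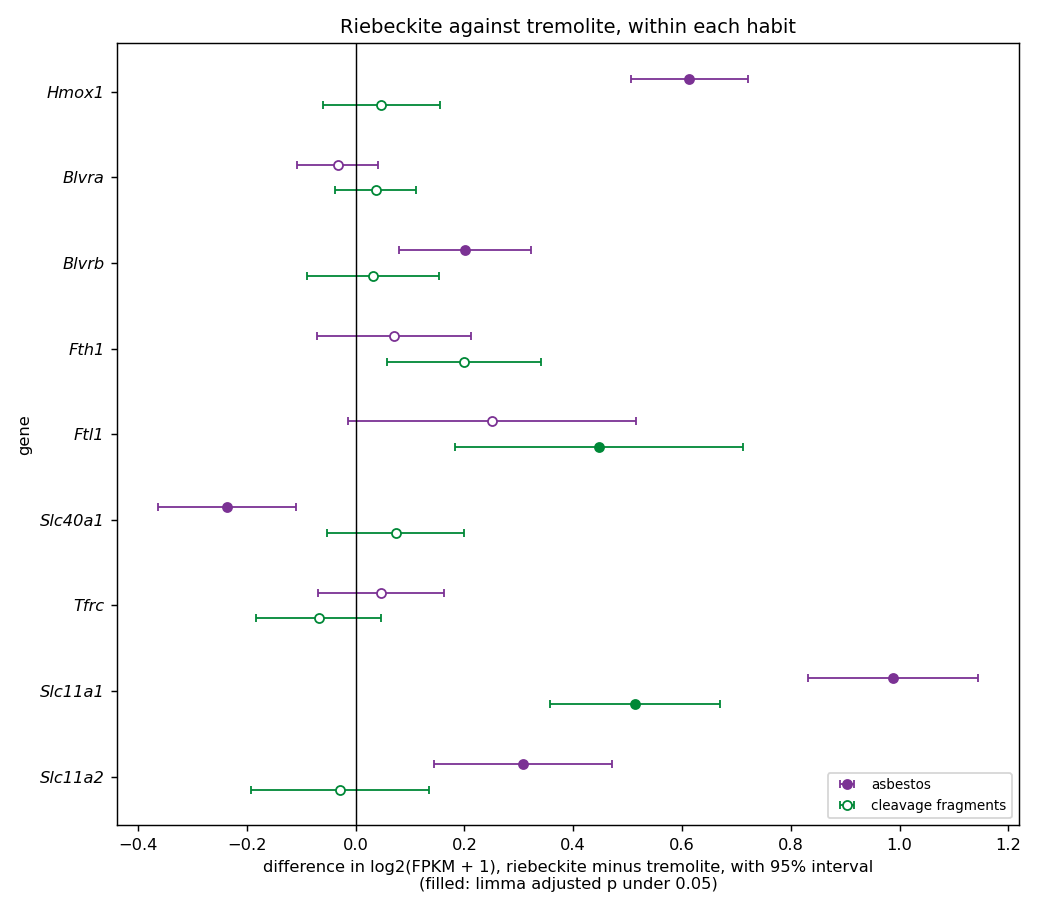
Difference in log2(FPKM + 1) between riebeckite and tremolite (x axis) for the 9 genes (y axis), given for asbestos and for cleavage fragments with 95% intervals from limma. Filled points passed the threshold: 5 genes between the asbestos groups and Ftl1 and Slc11a1 between the fragment groups.

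Genes around these 9 were taken as lists, whose shares called are read beside the 45.3, 38.4, 23.9 and 27.5% of all genes called with riebeckite asbestos, riebeckite fragments, tremolite asbestos and tremolite fragments. Of 10 measured genes of heme uptake, transport and breakdown, 7 rose and 1 fell with riebeckite asbestos, 7 rose with riebeckite fragments, 5 rose and 1 fell with tremolite asbestos, and 4 rose and 1 fell with tremolite fragments, which is 80, 70, 60 and 50% of the list against 45.3, 38.4, 23.9 and 27.5% of all genes, with medians of 0.44, 0.46, 0.19 and 0.16 on the log2 scale. Hp, haptoglobin, which binds free hemoglobin, averaged 35.4 ± 7.2 FPKM with riebeckite asbestos, 21.9 ± 0.41 with riebeckite fragments, 13.0 ± 0.50 with tremolite asbestos and 11.2 ± 1.5 with tremolite fragments, against 4.01 ± 0.45 FPKM in untreated cells (SD, n = 3 each). The heme carrier Slc48a1 rose with riebeckite asbestos (0.45) and riebeckite fragments (0.46), and gave -0.01 with tremolite asbestos and 0.08 with tremolite fragments. Abcg2, an exporter of porphyrins, likewise rose by 0.61 and 0.69 with the riebeckite particles and gave 0.12 and 0.06 with the tremolite ones. For both the minerals differed between asbestos groups (0.46 and 0.49) and between fragment groups (0.38 and 0.63), each past the limma threshold. With transcripts summed Abcg2 was no longer called with riebeckite fragments (0.63, 0.0804). Abcg2 with tremolite asbestos passed with TMM rescaling (0.15, adjusted p = 0.0179) and quantile normalization (0.14, 0.0217). It also passed with a pseudocount of 0.1 (0.0486) and a mean of at least 5 FPKM required (0.0459). Slc48a1 with tremolite fragments passed after quantile normalization (0.09, 0.0457). Flvcr2 rose by 0.49 to 0.61 with all 4. Hmox2, the constitutive heme oxygenase, rose by 0.35 with tremolite asbestos, and its 0.21 with riebeckite asbestos passed (0.0337) but was lost without any 1 riebeckite asbestos or untreated library (adjusted p = 0.0623 to 0.0777), after quantile normalization (0.105) and with nuclear genes set equal (0.0919). Flvcr1, which exports heme, passed nowhere.

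In heme synthesis, 6 of 9 measured genes rose and 1 fell with riebeckite asbestos, 1 rose and 1 fell with riebeckite fragments, 1 and 1 with tremolite asbestos and 2 and 1 with tremolite fragments (77.8, 22.2, 22.2 and 33.3% of the list, against 45.3, 38.4, 23.9 and 27.5% of all genes; medians 0.21, 0.07, 0.09 and 0.02). Alas1, its rate-limiting enzyme outside red cells, averaged 99.6 ± 7.1 FPKM with riebeckite asbestos, 86.0 ± 3.9 with riebeckite fragments, 67.2 ± 0.73 with tremolite asbestos and 73.2 ± 4.5 with tremolite fragments, against 42.8 ± 2.3 FPKM in untreated cells. With its transcripts summed no call of Alas1 held (1.29, 0.85, -0.45 and 0.43; adjusted p = 0.372, 0.588, 0.831 and 0.834), and the direction with tremolite asbestos was reversed. Cpox, a later enzyme of the path, fell with all 4 particles (-0.43, -0.47, -0.36 and -0.33), and Urod rose with riebeckite asbestos (0.35) and tremolite fragments (0.29). The Urod call with tremolite fragments was lost without untreated library 3 (0.12) or tremolite fragments library 2 (0.104) or 3 (0.0849), and with only the groups compared in the fit (0.0986).

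In the mitochondrial iron list, 5 of 15 measured genes rose and 4 fell with riebeckite asbestos, 3 and 1 with riebeckite fragments, 2 and 2 with tremolite asbestos, and 3 and 1 with tremolite fragments, which is 60, 26.7, 26.7 and 26.7% of the list against 45.3, 38.4, 23.9 and 27.5% of all genes, with medians of 0.02, 0.01, -0.07 and 0.03. Slc25a37, mitoferrin 1, which brings iron into mitochondria, averaged 20.2 ± 2.0 FPKM with riebeckite asbestos, 13.9 ± 1.4 with riebeckite fragments, 9.85 ± 0.79 with tremolite asbestos and 12.0 ± 0.69 with tremolite fragments, against 4.32 ± 0.60 FPKM in untreated cells. With transcripts summed the differences of Slc25a37 were 0.86, 1.01, 0.71 and 0.49, and none passed (adjusted p = 0.0813, 0.0512, 0.215 and 0.396). Its partner Abcb10 rose by 1.41, 1.19, 0.26 and 0.51, the call with tremolite asbestos being lost without tremolite asbestos library 1 (0.111) or 2 (0.0564) or untreated library 1 (0.0656) or 3 (0.0876). For Slc25a37 the asbestos effect differed between minerals by 0.77 (limma adjusted p = 0.00731), a contrast in which tremolite asbestos lay below tremolite fragments by -0.26 (0.288).

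Of the 8 iron regulatory proteins and sensors, 3 rose and 3 fell with riebeckite asbestos, 1 and 2 with riebeckite fragments, 1 and 2 with tremolite asbestos, and 0 and 1 with tremolite fragments, which is 75, 37.5, 37.5 and 12.5% of the list against 45.3, 38.4, 23.9 and 27.5% of all genes, with medians of 0.09, -0.01, -0.06 and -0.02. Aco1, which encodes iron regulatory protein 1, was lower with each particle (-0.19, -0.23, -0.19 and -0.20), and Ireb2, iron regulatory protein 2, with the riebeckite particles (-0.20 and -0.17). Pcbp1, a chaperone that delivers iron to ferritin, rose with riebeckite asbestos (0.26), as did Hif1a (0.29). Ncoa4, the receptor that takes ferritin to the lysosome, rose with riebeckite asbestos (0.57, adjusted p = 0.0368) and tremolite asbestos (0.77, 0.0146), at 43.7, 49.5 and 41.0 FPKM with riebeckite asbestos and 60.0, 53.5 and 42.3 FPKM with tremolite asbestos, against 35.9, 27.2 and 27.1 FPKM in untreated cells. The Ncoa4 call with riebeckite asbestos was lost without riebeckite asbestos library 1 (0.0725) or 2 (0.11) or untreated library 2 (0.108) or 3 (0.112) and after quantile normalization (0.0544), and that with tremolite asbestos without tremolite asbestos library 1 (0.0616) or untreated library 2 (0.0554) or 3 (0.0551). With riebeckite fragments Ncoa4 was not called in the main fit. It passed there with the replicate numbers in the fit (0.37, adjusted p = 0.0387) and with transcripts summed (0.43, 0.023).

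Of 20 genes of iron uptake, reduction and export, 5 were measured, of which 4 rose with riebeckite asbestos, 2 with riebeckite fragments, 1 with tremolite asbestos and 2 with tremolite fragments, and none fell past the threshold (80, 40, 20 and 40% of the list, against 45.3, 38.4, 23.9 and 27.5% of all genes; medians 0.20, 0.11, 0.06 and 0.05). Trf, transferrin, which carries iron between cells, rose with all 4 (0.19, 0.30, 0.16 and 0.13), and after quantile normalization gave 0.00, 0.05 and 0.01 with riebeckite asbestos, tremolite asbestos and tremolite fragments, which did not pass. Mcoln1, a lysosomal cation channel, rose with both riebeckite particles (0.25 and 0.21) and tremolite fragments (0.18), and the ferrireductase Steap3 and the zinc and iron carrier Slc39a14 with riebeckite asbestos (0.20 and 0.25). The Steap3 call was lost without riebeckite asbestos library 1 (0.051), with nuclear genes set equal (0.0629) and with transcripts summed (0.174). Cp, which oxidises iron leaving the cell, had no entry among the genes measured.

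Of 10 measured regulators of Hmox1 transcription, 4 rose and 2 fell with riebeckite asbestos, 3 and 2 with riebeckite fragments, 4 and 1 with tremolite asbestos, and 4 and 0 with tremolite fragments (60, 50, 50 and 40% of the list, against 45.3, 38.4, 23.9 and 27.5% of all genes; medians 0.04, -0.01, 0.09 and 0.11). Bach1, the heme-sensitive repressor of Hmox1, averaged 14.9 ± 0.67 FPKM with riebeckite asbestos, 17.7 ± 1.7 with riebeckite fragments, 19.1 ± 2.1 with tremolite asbestos and 19.9 ± 2.3 with tremolite fragments, against 23.5 ± 0.19 FPKM in untreated cells, and passed with the first 3 of these (tremolite fragments -0.24, limma adjusted p = 0.0728). The Bach1 call with tremolite asbestos was lost with TMM rescaling (0.0562) and without tremolite asbestos library 1 (0.134) or 3 (0.0506) or untreated library 1 (0.0714), 2 (0.0725) or 3 (0.0825), and that with tremolite fragments was gained without tremolite fragments library 3 (0.0451). The message of Nfe2l2, which encodes the activator NRF2, fell slightly with riebeckite asbestos (-0.14) and riebeckite fragments (-0.23) and gave 0.03 and -0.00 with the tremolite particles. Maff, a small MAF partner of both, rose by 1.82, 1.28, 1.12 and 1.16. Atf3 was higher with tremolite asbestos (0.55) than with riebeckite asbestos (0.31; difference -0.24, limma adjusted p = 0.0117), the reverse of Hmox1.

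Among 9 measured genes of lipid peroxide defence, 7 rose and 2 fell with riebeckite asbestos, 7 and 1 with riebeckite fragments, 4 and 1 with tremolite asbestos, and 6 and 1 with tremolite fragments (100, 88.9, 55.6 and 77.8% of the list, against 45.3, 38.4, 23.9 and 27.5% of all genes; medians 0.46, 0.30, 0.21 and 0.31). Gch1, the first enzyme of tetrahydrobiopterin synthesis, rose by 1.10, 0.62, 0.62 and 0.51, and the cystine carrier Slc7a11 by 0.79, 0.55, 0.41 and 0.59. Acsl4, which activates polyunsaturated fatty acids for the membrane lipids that peroxidise, rose too, by 0.56, 0.49, 0.32 and 0.37.

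Over the 15 libraries the genes whose levels ran most like those of Hmox1 were Ubqln2 (Pearson r = 0.989 on log2(FPKM + 1)), Dtx4 (0.984), B4galt1 (0.983), Sephs2 (0.983) and Pald1 (0.981), out of the 6521 genes that averaged 5 FPKM or more. Dtx4 averaged 18.4 ± 1.4 FPKM with riebeckite asbestos, 17.6 ± 1.4 with riebeckite fragments, 13.4 ± 0.85 with tremolite asbestos and 17.7 ± 0.33 with tremolite fragments, against 8.54 ± 0.28 FPKM in untreated cells. Among the nearest to Slc40a1 were Ncapg (0.976), Sh2d1b1 (0.954), Elovl5 (0.949) and Dip2c (0.944). The libraries fall into 5 groups, so these values mostly compare group means and carry no test.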

How the data were processed

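Libraries of MPI cells were made from oligo(dT)-enriched mRNA with dUTP second-strand synthesis, per the labels' protocols. Cutadapt, HISAT2 and StringTie were used with GRCm38, per the submitters' processing notes; no source used here gives versions or settings. The deposited tables hold 1 value per gene or coding transcript and library, read here as FPKM, the unit that the values and StringTie point to; depth is unknown. For 416 genes whose annotated transcripts were all listed, gene values equalled length-weighted sums over these transcripts within 5%. The shares of coding transcripts given above assume the same for genes with unlisted, non-coding transcripts, which could not be checked.

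Tests were run on log2(FPKM + 1) with limma 3.58.1 (R 4.3.3; mean-variance trend), for genes reaching 0.5 FPKM in 3 or more libraries; 1 fit held the 15 libraries, with p-values adjusted over all genes in each of 11 comparisons at 0.05; transcripts likewise. The code was tested on simulated data. Ratios used exact permutation tests (scipy 1.17.1). Hairpins, tables and plots came from Python 3.11.15. Members, gene lists and tests were chosen with earlier results of these data known. Named beyond the 9 genes were 12 fixed genes, up to 3 of each list with the largest called difference from untreated cells, and 5 genes nearest in profile to Hmox1 and to Slc40a1. Some genes that this rule named are not reported here. Alternatives were other scalings, pseudocounts, filters, variance models and sample sets, a replicate block, summed transcripts and the omission of each library.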

Additional observations from a re-analysis of the deposited data

Results flagged for a closer look

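The difference between asbestos and fragments was not the same in both minerals for a pair of the genes, by a test of the difference itself. Asbestos and fragments also differed in mass (9 against 40 µg/cm² with riebeckite, 5 against 60 µg/cm² with tremolite). Habit and mass therefore cannot be told apart. For Hmox1, asbestos minus fragments was 0.57 higher on the log2 scale in riebeckite than in tremolite (limma adjusted p = 0.00142), with asbestos minus fragments at 0.15 in riebeckite (adjusted p = 0.0664) and -0.41 in tremolite (0.00188). For Slc11a1 the same difference was 0.47 (adjusted p = 0.0236), and it rests on the gene value: with coding transcripts summed it was 0.14 (adjusted p = 0.95). Groups of 3 libraries were too small for a check of single libraries that stand apart.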

How the results depend on the processing

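Across settings other than omissions, 897 of 946 tests of the 9 genes kept direction and call, 16 gained a call, 31 lost one and 2 reversed; across omissions of 1 library 705 of 756 kept both, 10 gained, 41 lost and none reversed. The number of genes called for riebeckite minus tremolite (5) was 3 with quantile normalization, 3 with nuclear genes set equal and 1 with transcripts summed, and for asbestos minus fragments (3) it was 5 with quantile normalization and 1 with transcripts summed. With a mean of at least 5 FPKM required, which removes low genes from the test, it was 4 for tremolite fragments against untreated cells (7), 0 for riebeckite asbestos against riebeckite fragments (3), 2 between the asbestos groups (5), 1 between the fragment groups (2) and 1 for the difference of asbestos effects (2). With transcripts summed these were 1 for riebeckite asbestos against riebeckite fragments, 3 between the asbestos groups, 0 between the fragment groups and 1 for the difference of effects; with only the groups compared in the fit it was 1 between the fragment groups. The cause of these changes was not otherwise tested. Quantile normalization fixes Fth1 at 1 value, since it is the highest gene everywhere, so Fth1 was left out there.

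Summing transcripts reversed Alas1 with tremolite asbestos (-0.45, limma adjusted p = 0.831) and Slc11a1 for riebeckite asbestos against riebeckite fragments (-0.23, 0.845) and for asbestos minus fragments (-0.30, 0.746), and gave 0.12 for the ferritin ratio between minerals (exact permutation p = 0.305).

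Leaving out single libraries gave 9 genes with riebeckite asbestos, 8 to 9 with riebeckite fragments, 6 to 8 with tremolite asbestos and 6 to 7 with tremolite fragments against untreated cells. It gave 2 to 3 for riebeckite asbestos against riebeckite fragments, 1 for tremolite asbestos against tremolite fragments, 4 to 5 between the asbestos groups, 1 to 3 between the fragment groups, 3 to 5 for mineral, 3 to 4 for habit and 1 to 3 for the difference of effects. Called transcripts numbered 3 to 4 with riebeckite asbestos, 3 to 5 with riebeckite fragments, 2 with tremolite asbestos and 2 to 3 with tremolite fragments, and the ferritin ratio between minerals stayed at 0.17 to 0.26.

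Libraries with the same replicate number in different groups were weakly correlated in their deviations (over 0.1 in 4 of 30 pairs, median 0.0185, highest 0.172). The 60 pairs with other numbers had a median of -0.0162 and a highest value of 0.106. With 3 libraries per group this cannot settle pairing, and the main fit did not use the replicate numbers. With them as a replicate block, Hmox1 was called higher with riebeckite asbestos than with riebeckite fragments (0.15, adjusted p = 0.0134), Ftl1 with tremolite asbestos against untreated cells (0.31, 0.0103) and between the asbestos groups (0.25, 0.0284), Hmox1 for habit (-0.13, 0.0104) and Slc40a1 for the difference of effects (-0.31, 0.048), and Slc11a2 with tremolite fragments was lost (0.0593). Depth is unknown, so no counting interval could be given.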
